A study of Homo sapiens with 18 samples.

Results

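The genes described here are 10 heat shock chaperones: HSPA8, HSPA1A, HSPA1B, HSPH1, DNAJA1, DNAJB1, HSP90AA1, HSP90AB1, HSPB1 and HSPD1. They were picked by name among 58735 genes of the count table, and the values that led to the choice were the low HSPA8 counts of TIGK cells at 24 h after scratching. All 10 passed the filter on low counts. The name cytosolic heat shock chaperones fits 9 of them, since HSPD1 encodes the chaperonin of the mitochondrial matrix. The libraries came from a wound model in culture, in which cultured human keratinocytes were scratched. HaCaT is a spontaneously immortal line from adult skin, and TIGK is a line of gingival keratinocytes immortalised with telomerase, so that each tissue is represented by 1 line. Cells of either line were taken without a scratch (0 h) or 6 h or 24 h after it. That makes 6 groups of 3 libraries, 18 in all. No unscratched culture kept for 24 h was analysed here, and the effects of wounding and of longer culture cannot be told apart. No label says that the 3 libraries of a group came from separate cultures, and the p-values then measure only the spread between these libraries.

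Chaperones bind unfolded stretches of other proteins and keep them from aggregating while they fold, move or await degradation. HSP70 proteins (HSPA genes) work through cycles of ATP hydrolysis in which J-domain proteins (DNAJ genes) deliver the client and HSP110 proteins (HSPH genes) exchange the nucleotide. HSP90 proteins act later, on kinases and hormone receptors among others, and small heat shock proteins (HSPB genes) hold unfolded clients without ATP. HSF1 is the transcription factor that drives the inducible members when unfolded protein accumulates, by binding repeated GAA units called heat shock elements. In skin, HSPB1 is known for its abundance in the differentiating layers of the epidermis.

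Total counts ran from 14238090 to 25011331 per library, and the smallest count of any member was 571, for DNAJA1 in a HaCaT 24 h library. Libraries TIGK 0 h C and TIGK 6 h C stood apart, with 26246 and 25161 genes detected against 21164 to 22799 in the other 16 libraries and with the lowest shares of mitochondrial counts (5.08% and 4.98%). TIGK 24 h C did not stand apart by these measures, but its counts differed more from A and B than those did from each other. Chi-squared per degree of freedom was 17.8 and 13.4 for those pairs and 7.03 for A with B. The 12 keratinocyte markers, led by KRT5 and KRT14, summed to between 36340 and 49547 CPM (read counts scaled to a common library size) over the 18 libraries. Of the 6 fibroblast markers, which summed to 21.0 to 40.8 CPM in HaCaT and 236 to 435 CPM in TIGK, COL1A1 was the main part in HaCaT, COL1A1 and DCN were in TIGK, and COL1A2 was at or near 0 in both. Melanocyte, immune and endothelial markers each summed to at most 8.15 CPM, with TYR at 0. The fibroblast sum was highest at 24 h in both lines, and its part in the changes below was not tested.

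Positions are on hg38, the build of the files. HSPA8 (ENSG00000109971) is at chr11:123057489-123063230, HSPH1 at chr13:31134974-31162388, DNAJB1 at chr19:14514770-14529770, HSP90AA1 at chr14:102080738-102139699 and HSPD1 at chr2:197486581-197516737 on the minus strand. On the plus strand are DNAJA1 at chr9:33025211-33039907, HSP90AB1 at chr6:44246166-44253888 and HSPB1 at chr7:76302544-76304295. Reads of some members can be shared with other genes. HSPA1A (chr6:31815464-31817946) and HSPA1B (chr6:31827735-31830255) are tandem copies on the plus strand of hg38, and 72.6% of the stretches of 50 bases in the HSPA1A transcript also occur in HSPA1B. Their 2 separate values are therefore uncertain, and their sum is the safer quantity. The share of such stretches found in any other gene was 24.8% for HSPD1, 18.8% for HSP90AB1, 17.5% for HSP90AA1, 15.4% for HSPA8, 11.4% for HSPB1 and 0% for HSPH1. Pseudogene rows held at most 1.70% as many counts as the parent gene, the highest share being that of HSPD1. DNAJB1 overlaps TECR on the opposite strand, which reached 8066 counts in a library, and HSPD1 overlaps HSPE1. The sources used here do not give the strand setting of the counting.

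The promoters of 9 of the 10 members held at least a pair of the units of a heat shock element, and those of 5 held a run of 3 units. RefSeq windows of GRCh38.p14, from 250 bases before to 50 after the annotated start, were available for all 10 genes as 16 windows. A pair of units, searched as GAANNTTC or TTCNNGAA, which each read the same on both strands, was present in 10 of the 16 member windows and in 13.5% of 35116 windows of all genes. A run of 3 units, searched as GAANNTTCNNGAA or TTCNNGAANNTTC, which are each other's reverse complement and each contain both pairs, was present in 5 member windows, those of HSPA8, DNAJA1, HSP90AA1, HSP90AB1 and HSPD1. It was present in 0.49% of all windows. Counted by gene, the pair was found in 16.2% of all genes and the run in 0.608%. Genes with more windows had more chances of a match. The sequences below carry these units, printed 5′ to 3′ on the strand of the gene with the matched letters in capitals, to show how HSPA8 compares with the other HSP70, J-domain, HSP90 and small heat shock protein genes.
HSPA8, far site: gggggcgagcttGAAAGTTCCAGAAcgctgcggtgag
HSPA8, near site: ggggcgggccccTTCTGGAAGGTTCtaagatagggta
HSPA1A: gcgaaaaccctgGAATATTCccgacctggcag
HSPA1B: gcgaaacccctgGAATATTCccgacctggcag
DNAJA1: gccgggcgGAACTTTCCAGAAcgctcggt
DNAJB1: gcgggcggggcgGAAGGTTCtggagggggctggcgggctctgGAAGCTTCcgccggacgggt
HSP90AA1: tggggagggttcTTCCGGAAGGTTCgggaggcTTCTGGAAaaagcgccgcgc
HSP90AB1, far site: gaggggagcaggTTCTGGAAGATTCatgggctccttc
HSP90AB1, near site: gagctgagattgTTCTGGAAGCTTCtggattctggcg
HSPB1: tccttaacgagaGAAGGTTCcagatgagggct
HSPD1: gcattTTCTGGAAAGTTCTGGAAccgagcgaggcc

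HSPA8 held 3 units at 2 places, 230 to 218 and 55 to 43 bases before its start (chr11:123062342-123062378 and chr11:123062167-123062203, minus strand). HSP90AB1 likewise held 3 units at 2 places, 165 to 153 and 112 to 100 bases before 1 of its annotated starts. They lay at chr6:44247766-44247802 and chr6:44247819-44247855 (plus strand). HSPD1 held 2 overlapping runs in the stretch shown. HSP90AA1, HSP90AB1, DNAJB1 and HSPD1 had more than 1 window, and each had at least 1 without a match. The HSPA1A and HSPA1B sites lay at chr6:31815425-31815456 and chr6:31827621-31827652 on the plus strand, in windows that were 92.6% identical, and showed a pair of units only. The HSP90AA1 stretch was at chr14:102087093-102087144 (minus). The DNAJA1 stretch was at chr9:33025268-33025296 (plus), just past its start, and those of DNAJB1, HSPB1 and HSPD1 were at chr19:14518425-14518486 (minus), chr7:76302479-76302510 (plus) and chr2:197500056-197500090 (minus). HSPH1 had no match, which says only that these letters are not in its window. A match is a description of the letters, not evidence of binding. Among the other protein-coding genes tested, 51 had a run of 3 units in a promoter window. In HaCaT at 24 h, 15.7% of those 51 were called lower than at 0 h and 15.7% higher, against 18.9% and 18% of the 10891 genes without the run. In TIGK at 24 h the shares were 23.5% lower and 11.8% higher, against 19.6% and 17.5%.

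Levels of the members relative to each other were read from the deposited FPKM, which divides by gene length. That length can exceed the length of a transcript. It is 8390 bases for HSPH1 and 4849 for HSPA8, against 5191 and 2463 in their longest coding transcripts, while HSPA1B has 2521 in both. FPKM of HSPH1 and HSPA8 are thus low relative to HSPA1B, and the order below holds for FPKM only. HSPB1 had the highest mean FPKM of the 10 in every group, with 775 ± 48.3 (SD, n = 3) in unscratched HaCaT and 1089 ± 252 in unscratched TIGK. HSPA8 was next in unscratched cells of both lines, with 496 ± 26.9 FPKM in HaCaT and 847 ± 34.1 in TIGK. The FPKM ranges of HSPA8 and HSP90AB1 overlapped in unscratched HaCaT, and those of HSPB1 and HSPA8 overlapped in unscratched TIGK, so neither order is separated from the spread. HSP90AB1, the constitutive HSP90, then followed with 461 and 631 FPKM in the 2 lines, and HSP90AA1, the inducible form, with 198 and 241. HSPD1, HSPA1A, DNAJB1, HSPH1 and HSPA1B lay between 44.8 and 98.9 FPKM in unscratched HaCaT and between 42.6 and 169 in unscratched TIGK, where DNAJA1 had 136.

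By FPKM, with the limit of gene length given above, the lowest member differed between the lines. It was DNAJA1 in HaCaT at all 3 times, with 31.7 ± 1.86 FPKM at 0 h, and HSPH1 in TIGK at all 3 times, with 42.6 ± 4.19 FPKM at 0 h, although at 6 h its range overlapped with that of HSPA1B. By mean FPKM among 19951 protein-coding genes, HSPA8 had rank 41 in unscratched HaCaT, 36 at 6 h and 153 at 24 h. In TIGK its rank was 28, 29 and 128 at the 3 times. Together the 10 genes took 0.756% ± 0.0325 of all counts in unscratched HaCaT, 0.803% ± 0.0145 at 6 h and 0.546% ± 0.0248 at 24 h. In TIGK the share was 1.16% ± 0.0103, 1.05% ± 0.0505 and 0.699% ± 0.0646. Without HSPA8, the other 9 took 0.513% ± 0.0191 in HaCaT at 0 h and 0.470% ± 0.0206 at 24 h, and 0.738% ± 0.00623 and 0.609% ± 0.0528 in TIGK.

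**Figure D1:**
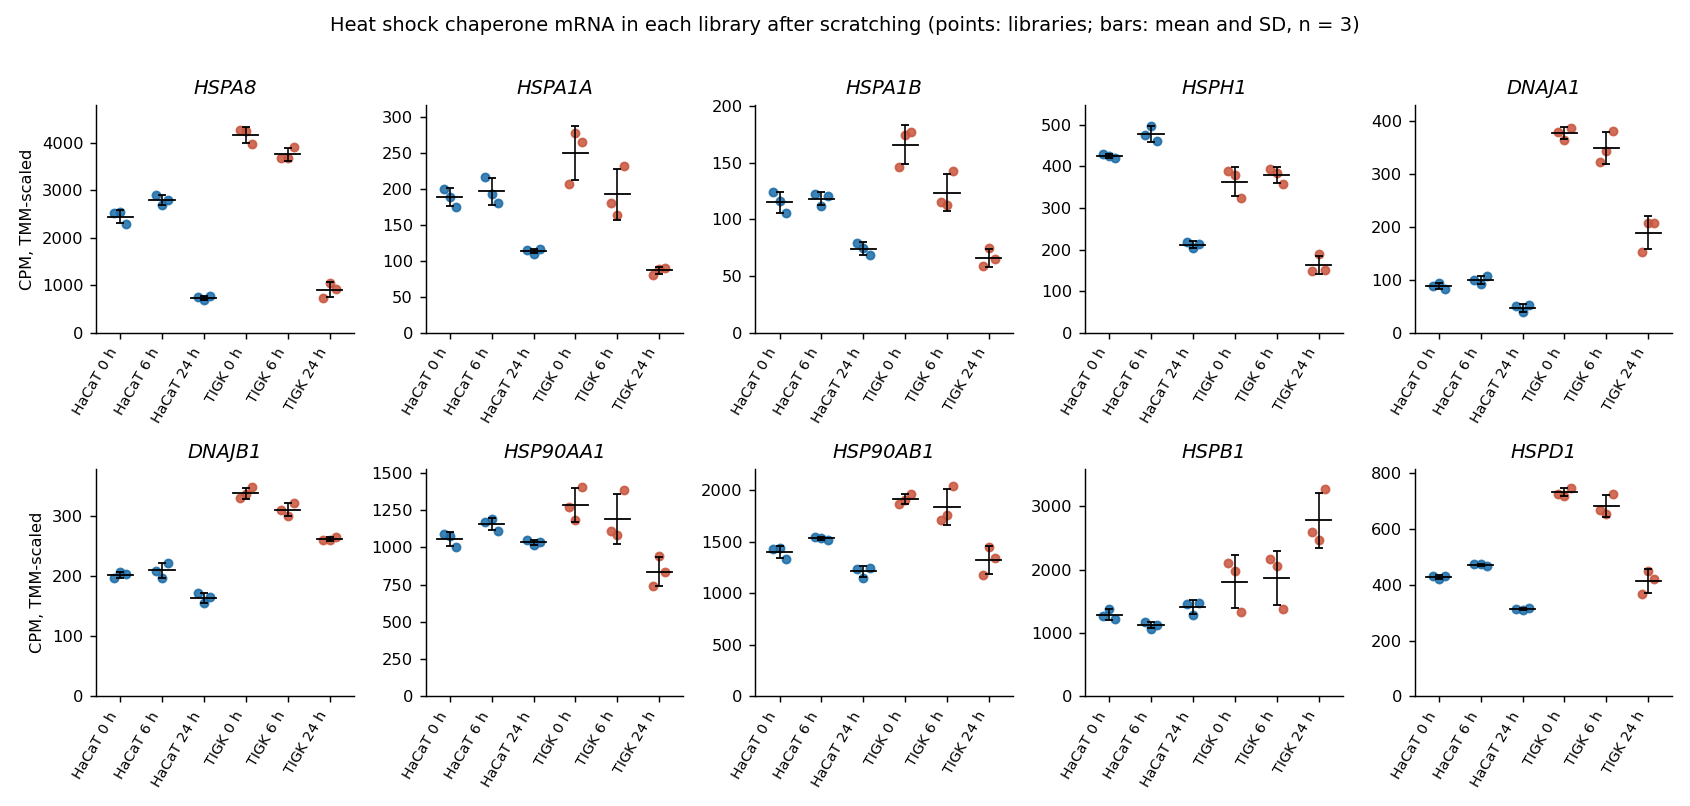
CPM (vertical axes, from 0) of each of the 10 chaperones in the 6 groups, HaCaT in blue and TIGK in red. Points are libraries, and bars give the mean and SD of 3 libraries. HSPA8 in HaCaT lies between 2289 and 2910 CPM at 0 h and 6 h and between 692 and 769 CPM at 24 h.

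At 24 h after the scratch, 8 of the 10 chaperone mRNAs were lower in HaCaT than in unscratched cells and none was higher. HSPA8 fell the most, 3.30-fold, followed by HSPH1 (2.001-fold), DNAJA1 (1.88-fold), HSPA1A (1.65-fold) and HSPA1B (1.55-fold). HSPD1, DNAJB1 and HSP90AB1 fell by smaller factors, and HSP90AA1 and HSPB1 did not pass the test. Of all 17409 genes tested with edgeR's quasi-likelihood test at a false discovery rate under 0.05, 15.9% were called lower and 15.5% higher, and the median log2 fold change was -0.54 for the 10 members and 0.0036 for all genes. The HaCaT libraries were not among those that led to the choice of these genes, although the choice was made with results of both lines known. CPM is a share of the counted RNA, and in bulk cultures fewer cells with the RNA and less RNA per cell cannot be told apart.

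HSPA8 is the constitutive HSP70 of the cytosol, which also uncoats clathrin-coated vesicles. It had 2514, 2536 and 2289 CPM in the 3 unscratched HaCaT libraries (A, B and C) and 761, 692 and 769 CPM at 24 h. The groups were far apart, with all 24 h libraries well below every unscratched one. The log2 fold change was -1.72 (SE 0.09, edgeR adjusted p = 5.19e-13), and 300 of the 17409 genes tested had a lower value. Over 17 alternatives it stayed between -1.78 and -1.67.

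The stress-inducible HSP70 pair moved the same way by less. HSPA1A had 201, 190 and 175 CPM in unscratched HaCaT and 116, 110 and 116 CPM at 24 h, without overlap. HSPA1B had 124, 116 and 105 CPM and then 79.4, 74.6 and 68.3 CPM, also without overlap. Their log2 fold changes were -0.73 (SE 0.11, edgeR adjusted p = 1.65e-05) and -0.63 (SE 0.10, adjusted p = 3.35e-05). HSPH1, an HSP110 that exchanges the nucleotide of HSP70, went from 429, 424 and 420 CPM to 219, 204 and 212 CPM. Its libraries were close to each other within both groups, and its log2 fold change was -1.001 (SE 0.08, edgeR adjusted p = 1.81e-09).

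Both J-domain members fell in HaCaT. DNAJA1, a farnesylated partner of HSP70, had 88.7, 93.3 and 82.5 CPM at 0 h and 49.6, 38.9 and 51.7 CPM at 24 h, a log2 fold change of -0.91 (SE 0.11, edgeR adjusted p = 6.2e-07). DNAJB1, the stress-inducible HSP40, had 197, 207 and 204 CPM at 0 h and 172, 155 and 165 CPM at 24 h. The groups did not overlap in either gene, but the DNAJB1 difference was small, at -0.30 (SE 0.07, edgeR adjusted p = 0.000991).

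The 2 HSP90 genes showed little change in HaCaT. HSP90AB1 had 1426, 1436 and 1336 CPM at 0 h and 1232, 1153 and 1250 CPM at 24 h, and HSP90AA1 had 1089, 1076 and 1002 CPM against 1046, 1012 and 1038 CPM. Only the HSP90AB1 groups were apart, with a log2 fold change of -0.21 (SE 0.08, edgeR adjusted p = 0.0385). That call was lost in 10 of 17 alternatives, with adjusted p-values up to 0.166, among them the fits without 1 of 5 single libraries (HaCaT 0 h A or B, or 24 h A, B or C). For HSP90AA1 the log2 fold change was -0.03, with a 95% interval of -0.23 to 0.16 (edgeR adjusted p = 0.835), and its sign turned with libraries scaled to total counts (0.02).

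HSPB1, the small heat shock protein also called HSP27, had 1273, 1380 and 1214 CPM in unscratched HaCaT and 1457, 1278 and 1480 CPM at 24 h. The groups overlapped, and the log2 fold change of 0.12 had a 95% interval of -0.19 to 0.44 (edgeR adjusted p = 0.564). HSPD1, the mitochondrial chaperonin, had 432, 419 and 431 CPM at 0 h and 312, 309 and 318 CPM at 24 h. Those groups were well separated, with a log2 fold change of -0.45 (SE 0.07, edgeR adjusted p = 1.87e-05).

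**Figure D2:**
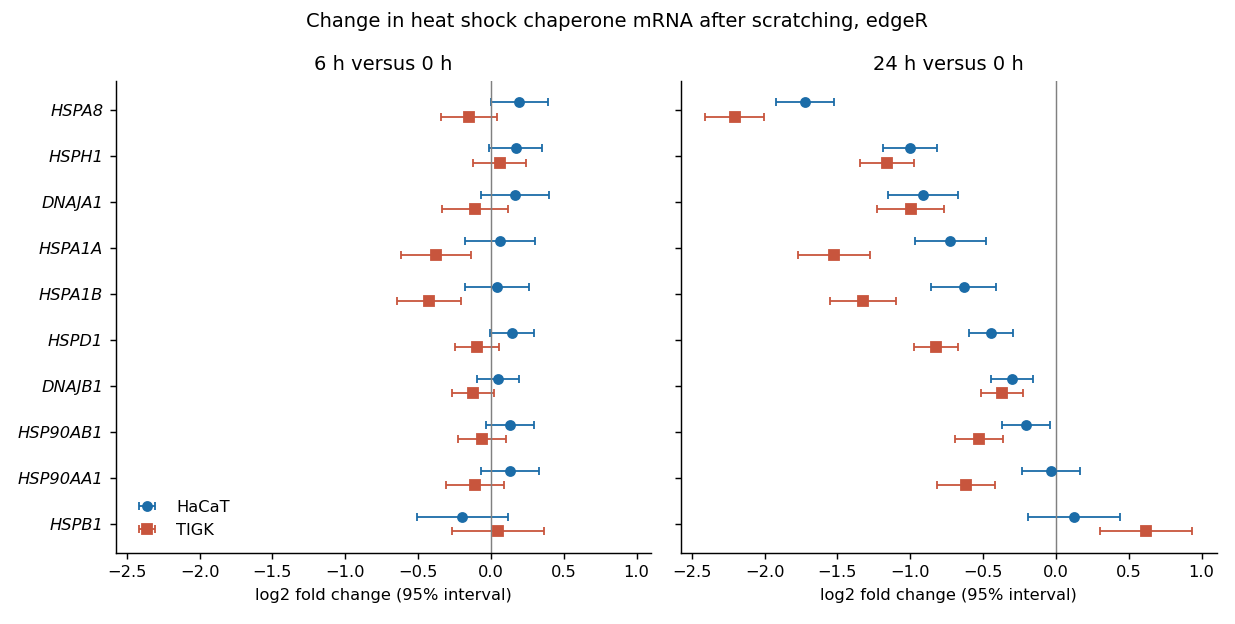
Log2 fold changes of the 10 chaperones against unscratched cells (horizontal axis) at 6 h and at 24 h, with 95% intervals, HaCaT as blue circles and TIGK as red squares. At 24 h HSPA8 is farthest to the left in both lines, at -1.72 and -2.21, while the 6 h values lie between -0.42 and 0.20.

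In TIGK at 24 h, the contrast by which the genes were chosen, 9 of the 10 were lower than at 0 h and HSPB1 was higher. These values are a description and no test is given for them. Over all genes tested 17% were called lower and 15.3% higher. The median log2 fold change was -0.91 for the members and -0.01 for all genes.

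HSPA8 had 4280, 4258 and 3981 CPM in unscratched TIGK (libraries A, B and C) and 735, 1045 and 932 CPM at 24 h. The difference was -2.21 on the log2 scale (SE 0.09), 4.62-fold lower, with a wider spread between the 24 h libraries than in HaCaT. HSPA1A had 207, 278 and 266 CPM at 0 h and 81.1, 89.5 and 90.4 CPM at 24 h, a log2 fold change of -1.53 (SE 0.11). HSPA1B had 146, 175 and 177 CPM and then 58.6, 74.7 and 65.1 CPM, a log2 fold change of -1.33 (SE 0.10). HSPA8 and the inducible pair were thus the 3 members with the lowest values. HSPH1 went from 389, 379 and 323 CPM to 149, 188 and 151 CPM, and DNAJA1 from 378, 364 and 387 CPM to 153, 207 and 206 CPM. Their log2 fold changes were -1.16 (SE 0.085) and -0.996 (SE 0.11). DNAJB1 had 329, 337 and 347 CPM at 0 h and 259.4, 259.7 and 265 CPM at 24 h, the smallest difference of the 9, at -0.37 (SE 0.07).

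HSP90AB1 had 1866, 1906 and 1962 CPM in unscratched TIGK and 1180, 1445 and 1346 CPM at 24 h, a log2 fold change of -0.53 (SE 0.08). HSP90AA1 went from 1267, 1182 and 1406 CPM to 739, 938 and 834 CPM, a log2 fold change of -0.62 (SE 0.09). Library A of TIGK at 24 h was the lowest of its group for 9 of the 10 members, and HSPB1 was the exception. HSPD1 had 725, 719 and 746 CPM and then 368, 449 and 422 CPM, a log2 fold change of -0.82 (SE 0.07). HSPB1 rose from 2113, 1982 and 1332 CPM to 2590, 2468 and 3278 CPM, a log2 fold change of 0.62 (SE 0.14). The 0 h value of 1332 CPM came from the library that also stood apart in genes detected, and over 17 alternatives, leaving it out among them, the HSPB1 value stayed between 0.44 and 0.74.

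At 6 h after the scratch no member was called in HaCaT. Genes called over the whole table made up 0.138% (higher) and 0.0632% (lower) in edgeR, 1 member (HSPA8) had an unadjusted p under 0.05, and DESeq2 and limma on the FPKM also called 0. HSPA8 had 2910, 2698 and 2799 CPM at 6 h, all above the 3 unscratched libraries. Its log2 fold change was 0.20 (SE 0.09, edgeR adjusted p = 0.622), and with only the 2 groups compared in the fit the adjusted p was 0.0347. In all, 6 of the 10 members had groups that did not overlap between 6 h and 0 h, against 15.9% of all genes tested: HSPA8, HSPH1, HSP90AA1, HSP90AB1 and HSPD1 were above and HSPB1 was below. The 95% interval of HSPH1 was -0.01 to 0.35 on the log2 scale, and that of HSPB1 was -0.51 to 0.12.

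In TIGK at 6 h, 1 member was called lower, HSPA1B, and none higher. Over all genes 1.12% were called lower and 2.5% higher, or 435 higher and 195 lower, a split that became 316 higher and 354 lower with libraries scaled to total counts. Groups of 3 of the 10 members did not overlap (HSPA8, HSPA1B and DNAJB1), against 19.6% of all genes tested. HSPA1B had 116, 112 and 142 CPM at 6 h, below its 3 unscratched libraries, a log2 fold change of -0.42 (SE 0.10, edgeR adjusted p = 0.0145). Its near copy HSPA1A had 181, 164 and 233 CPM, which overlapped with the unscratched libraries, and a log2 fold change of -0.38 (SE 0.11, edgeR adjusted p = 0.0568). HSPA1A was called in 9 of 17 alternatives, among them without TIGK 0 h A (0.00957) or TIGK 6 h C (0.0016). The sum with HSPA1B is 1 of the 9. With the counts of both added the log2 fold change was -0.40 (edgeR adjusted p = 0.0259). The HSPA1B call was lost with only the 2 groups compared in the fit (adjusted p = 0.0996) and without TIGK 0 h B, 0 h C, 6 h A or 6 h B (0.0696, 0.0719, 0.0968 and 0.118). HSPA8 had 3675, 3679 and 3913 CPM, below all 3 unscratched libraries, a log2 difference of -0.15 (95% interval -0.34 to 0.04) for which no test is given because it shares the unscratched libraries with the chosen contrast. The other 7 members lay between -0.12 (DNAJB1) and 0.06 (HSPH1).

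The 2 lines differed before the scratch. At 0 h, 8 of the 9 members tested were called lower in HaCaT than in TIGK and HSPH1 was called higher. Of all genes 33.3% were called lower and 29.3% higher. DNAJA1 differed most, with 82.5 to 93.3 CPM in HaCaT and 364 to 387 CPM in TIGK, 4.27-fold lower in HaCaT (log2 fold change -2.09, SE 0.11, edgeR adjusted p = 2.67e-14). HSPD1 was 1.71-fold lower (edgeR adjusted p = 6.67e-10), DNAJB1 1.67-fold (5.88e-10), HSPA1B 1.44-fold (7.37e-05), HSPB1 1.40-fold (0.00507), HSP90AB1 1.37-fold (1.4e-05), HSPA1A 1.33-fold (0.00232) and HSP90AA1 1.22-fold (0.00868). HSPA8 was 1.71-fold lower, with no test given since the unscratched TIGK libraries belong to the chosen contrast. The groups of 9 members did not overlap, against 68.1% of all genes tested, and for HSPB1 they did, through the TIGK library of 1332 CPM. HSPH1 was 1.17-fold higher (edgeR adjusted p = 0.0224), a call that was lost without TIGK 0 h C (adjusted p = 0.155) or HaCaT 0 h A (0.0614) and with total counts as the scale (0.0504). The HSP90AA1 call was lost without TIGK 0 h C (0.0551).

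At 6 h, 6 members were lower in HaCaT than in TIGK and 1 was higher, with 32.8% and 29.8% of all genes called in these directions. DNAJA1 was again the farthest apart, 3.52-fold lower (edgeR adjusted p = 3.41e-13), and HSPA8 was 1.34-fold lower (log2 fold change -0.42, SE 0.09, edgeR adjusted p = 0.000209). HSPB1, DNAJB1, HSPD1 and HSP90AB1 were 1.66-, 1.48-, 1.45- and 1.20-fold lower, and HSPH1 was 1.26-fold higher (edgeR adjusted p = 0.0012). HSPA1A, HSPA1B and HSP90AA1 did not pass the test at 6 h, with 95% intervals of -0.21 to 0.27, -0.28 to 0.16 and -0.24 to 0.15.

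The 24 h comparison holds the TIGK libraries of the chosen contrast, and its values are a description with no test. Over all genes 33.1% were called lower in HaCaT and 28.6% higher. DNAJA1 was 4.03-fold lower in HaCaT, HSPB1 1.98-fold, DNAJB1 1.59-fold, HSPD1 1.32-fold, HSPA8 1.22-fold and HSP90AB1 1.09-fold. The ranges of the 2 lines overlapped for HSPA8 and HSP90AB1. Without TIGK 24 h B the HSPA8 log2 difference of -0.29 became -0.18. HSPA1A, HSPH1, HSP90AA1 and HSPA1B were 1.31-, 1.302-, 1.23- and 1.12-fold higher in HaCaT, and the HSPA1B ranges overlapped. With the counts of HSPA1A and HSPA1B added, the safer quantity, the log2 difference was 0.297. Without TIGK 24 h A the HSP90AA1 difference of 0.30 became 0.21, and that of HSP90AB1 went from -0.13 to -0.21. The DNAJA1 gap between the lines was thus present at all 3 times, in the range of 3.52- to 4.27-fold.

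The line difference in each response is the log2 fold change in TIGK minus that in HaCaT. The 24 h response contains the chosen contrast and is given as a description, with no test. The lowest values were those of HSPA1A (-0.80, SE 0.16), HSPA1B (-0.69, SE 0.15), HSP90AA1 (-0.59, SE 0.13), HSPA8 (-0.48, SE 0.13), HSPD1 (-0.37, SE 0.10) and HSP90AB1 (-0.32, SE 0.11). Over all genes the line difference was called negative in 7.07% (1231 genes) and positive in 6.45% (1123 genes), which became 1637 and 756 genes with libraries scaled to total counts. HSPH1, DNAJA1 and DNAJB1 were at -0.16 (SE 0.12), -0.08 (SE 0.15) and -0.07 (SE 0.09). The HSPB1 difference was 0.50 (SE 0.20).

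For the 6 h response no line difference was called among the 9 members tested, with 0.534% of all genes positive and 0.218% negative (93 and 38 genes, or 69 and 51 with libraries scaled to total counts). In edgeR 3 of the 9 had an unadjusted p under 0.05, all negative, and DESeq2 and limma on the FPKM called 0. HSPA1B had the lowest value, -0.46 (95% interval -0.78 to -0.15, edgeR adjusted p = 0.166), followed by HSPA1A with -0.44 (adjusted p = 0.27). Without TIGK 6 h C both were called, at adjusted p-values of 0.0242 and 0.0218. HSPA8 is given without a test, at -0.35 (SE 0.13).

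The other genes of the chaperone system were taken as 10 lists, which held 94 tested rows. In HaCaT at 24 h, 31 of the 94 (33%) were called lower and 10 (10.6%) higher, against the 15.9% and 15.5% of all genes given above. The shares of single lists below are to be read against these, and with 4 to 15 genes a list they rest on few genes. Of 4 genes around the heat shock factors, HSF1 fell from 149 to 171 CPM over the unscratched libraries to 109 to 122 CPM at 24 h, a log2 fold change of -0.44 (SE 0.07, edgeR adjusted p = 3.3e-05). HSF2, HSF4 and HSBP1, a small protein that binds HSF1, did not pass the test, at 0.33, 0.00 and -0.04. In TIGK at 24 h HSF1 was at -0.07 and only HSF4 was called, at -0.92, with at most 8.06 CPM in any TIGK library. The difference between the lines in the HSF1 response at 24 h was 0.36 (SE 0.10).

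In the lists that work with HSP70, falls outnumbered rises in HaCaT at 24 h. Among 7 rows of other HSP70 and HSP110 genes 4 were lower: HSPA4, an HSP110 (294 to 175 CPM, log2 fold change -0.75, edgeR adjusted p = 9.13e-08), HSPA2 (-0.65, 2.36e-06), HSPA6, at 2.75 and 0.956 CPM (-1.51, 0.0018), and 1 of 2 rows named HSPA14 (-0.35, 0.0407). Of 11 other J-domain proteins of the cytosol and nucleus, 3 were lower, among them DNAJC2, which sits on the ribosome (-0.76, edgeR adjusted p = 4e-06), and DNAJA2 (-0.35), while DNAJB4 was higher (0.55). Of 8 nucleotide exchange factors and cofactors 3 were lower, BAG2 by the most (14.2 to 5.14 CPM, log2 fold change -1.46, edgeR adjusted p = 7.73e-09), with BAG1 (-0.37) and BAG3 (-0.35). The median log2 fold changes of these 3 lists were -0.35, -0.10 and -0.11.

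The HSP90 co-chaperones and the TRiC chaperonin, which folds actin and tubulin, showed a similar balance in HaCaT at 24 h. Of 15 co-chaperones 8 were lower and 2 higher. CHORDC1 (-0.97, edgeR adjusted p = 2.52e-09), FKBP4 (-0.68, 8e-07) and STIP1, the adaptor between HSP70 and HSP90 (-0.46, 3.87e-05), fell, while the glucocorticoid-responsive FKBP5 rose from 113 to 179 CPM (0.66, 2.08e-07). Of 14 TRiC and prefoldin subunits 6 were lower and 1 higher, and all 6 were TRiC subunits while the 1 was the prefoldin VBP1 (0.29, named after its value was seen), with CCT2 (-0.73, edgeR adjusted p = 3.02e-08) and CCT6A (-0.65, 5.82e-07) the lowest. The list medians were -0.36 and -0.24.

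Small heat shock proteins and chaperones of other compartments gave mixed counts in HaCaT at 24 h. Of 4 other small heat shock proteins tested, HSPB8, the partner of BAG3, rose from 7.78 to 21.4 CPM (log2 fold change 1.46, edgeR adjusted p = 1.73e-07) and none was called lower. HSPB2, HSPB6, HSPB7 and CRYAA did not pass the filter on low counts. Of 10 mitochondrial chaperones and proteases 4 were lower, GRPEL1 (-0.67) and DNAJA3 (-0.55) the most, and the protease LONP1 was higher (0.44, edgeR adjusted p = 4.08e-05). Of 14 chaperones of the endoplasmic reticulum 2 (14.3%, near the 15.5% of all genes) were higher, CALR (0.34, edgeR adjusted p = 0.000337) and HSPA5, also called BiP (873 to 1015 CPM, 0.22, 0.0357), and SDF2L1 was lower (-0.40). Among other target genes of HSF1, UBB was higher (0.38, with groups that overlapped) and MRPL18 was lower (-0.38). The list medians ran from -0.23 (mitochondrial) to 0.49 (small heat shock proteins).

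The counts of the same lists in TIGK at 24 h, except that of other HSF1 target genes, are given beside these without a test of the difference. Over all genes 17% were called lower there and 15.3% higher. HSP70 and HSP110 genes were again 4 lower of 7, with HSPA2 at -0.91. J-domain proteins were 4 lower of 11, DNAJA4 at -0.997 and DNAJC2 at -0.73, and cofactors 3 lower of 8, BAG1 at -0.91 and BAG2 at -0.77. HSP90 co-chaperones were 8 lower and 2 higher of 15, with FKBP4 at -0.95 and AHSA1, which stimulates the HSP90 ATPase, at -0.82. TRiC and prefoldin were 6 lower of 14, and mitochondrial chaperones 5 lower of 10. Among the latter was HSPE1, the partner of HSPD1, at -0.51. Its groups overlapped, with 21.1 to 29.5 CPM at 0 h and 11.9 to 22.6 CPM at 24 h. Of the other small heat shock proteins 3 of 4 were higher: CRYAB (12.5 to 24.0 CPM, 0.95), HSPB8 (0.87) and HSPB3, whose groups overlapped (0.788 to 2.03 CPM, 1.38). Of the endoplasmic reticulum chaperones 5 were higher and 1 lower, with DNAJB9 at 0.60, PDIA4 at 0.56, HSPA5 at 0.53 and HSP90B1 at 0.50. At 6 h 0 of the 94 rows were called in HaCaT by edgeR, DESeq2 or limma, with 8 at an unadjusted p under 0.05 in edgeR of which 6 were higher. In TIGK at 6 h 1 was called by edgeR, HSPA6, a strictly inducible HSP70 (3.27 to 6.70 CPM, log2 fold change 1.03, edgeR adjusted p = 0.0479), and 4 were called by DESeq2. Between the lines, 39 of the 94 rows (41.5%) were lower and 20 (21.3%) higher in HaCaT at 0 h, against 33.3% and 29.3% of all genes. At 6 h they were 34 (36.2%) and 23 (24.5%), against 32.8% and 29.8%.

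**Figure D3:**
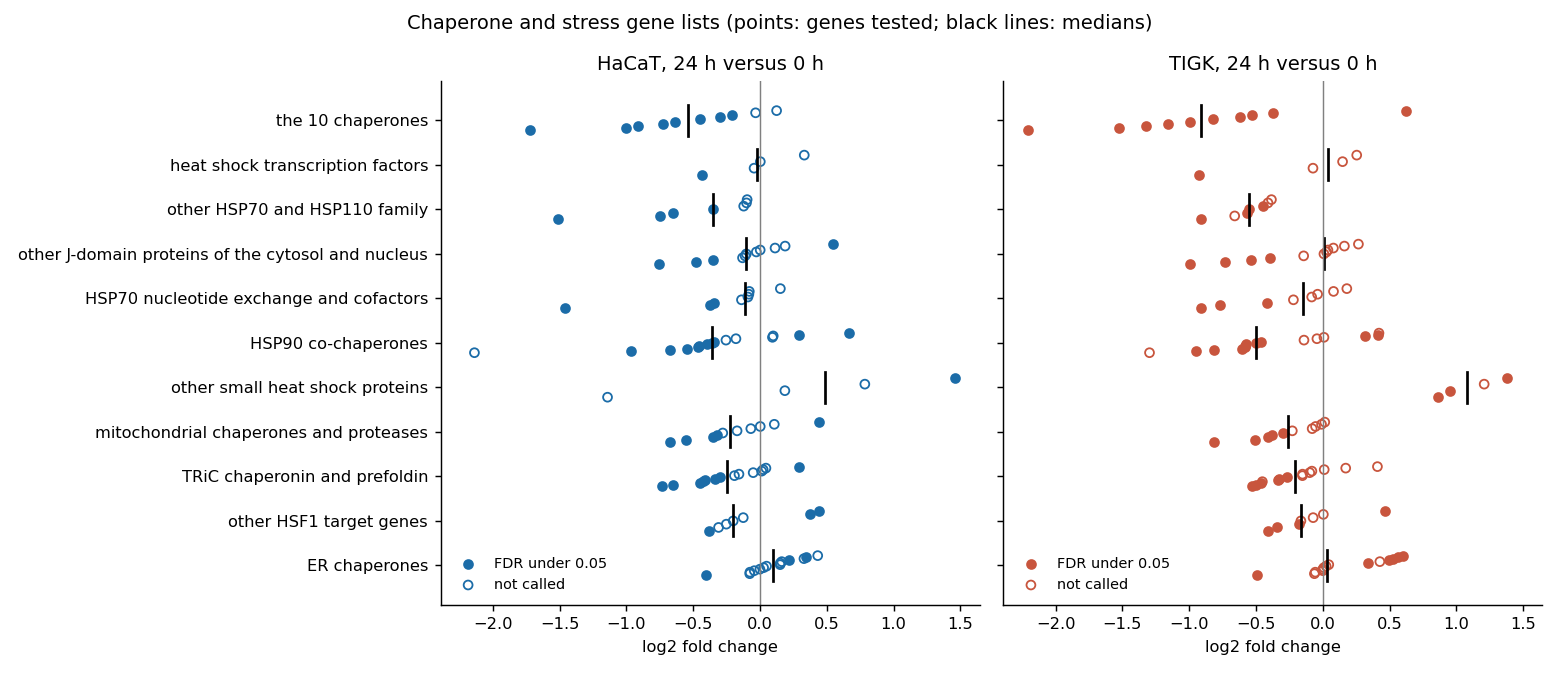
Log2 fold changes at 24 h against 0 h (horizontal axes) for the 10 chaperones and the 10 other lists in HaCaT (left) and TIGK (right). Each point is a gene, filled where called and open where not, and black lines are medians. The median of the 10 chaperones is -0.54 in HaCaT and -0.91 in TIGK, and the list of other small heat shock proteins lies at 0.49 and 1.08.

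The genes whose profile over the 18 libraries was most like that of HSPA8 were looked for among 2070 protein-coding genes of higher expression, by the mean absolute difference of centred log2 CPM. The 5 closest were ODC1, the first enzyme of polyamine synthesis, NOP56, a core protein of box C/D ribonucleoproteins in the nucleolus, ATAD3B, a mitochondrial ATPase, MYBBP1A, a nucleolar protein, and SRM, spermidine synthase. Their distances to HSPA8 were 0.21, 0.31, 0.33, 0.35 and 0.37. ODC1 had a mean of 265 CPM in HaCaT at 0 h, 272 at 6 h and 80.9 at 24 h, and 388, 371 and 144 CPM in TIGK. NOP56 had 201, 230 and 72.3 CPM in HaCaT and 258, 257 and 128 CPM in TIGK. Both were thus low at 24 h in either line. Among the other chaperones of the set the closest to HSPA8 was HSPA1A, at 0.42 with 11 of the 2070 genes closer, then HSPH1 (0.48) and HSPA1B (0.49), and HSPB1 was the most distant, at 1.07. The libraries share depth and scaling, and the distances are a description of this dataset.

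**Figure D4:**
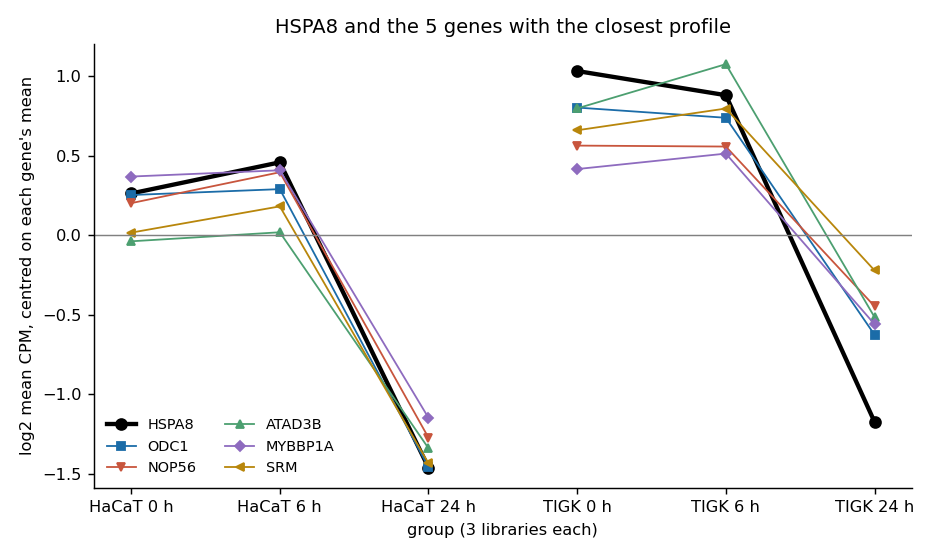
Log2 mean CPM in the 6 groups (vertical axis, centred on the mean of each gene over the groups) for HSPA8 in black and the 5 genes with the closest profile in colour. Lines join the times within a line. ODC1, at a distance of 0.21, follows HSPA8 most closely and falls from a mean of 265 to 80.9 CPM in HaCaT between 0 h and 24 h.

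The authors' deposited table for HaCaT at 24 h lists 8 of the members, and that for TIGK at 24 h lists all 10. For HSPA8 the authors' deposited tables give log2 fold changes of -1.72 in HaCaT and -2.19 in TIGK. Of the 3 authors' deposited tables that compare the lines, each lists DNAJA1 alone among the 10, at -2.07, -1.81 and -1.97 for 0 h, 6 h and 24 h. The table for HaCaT at 24 h lists a change as small as -0.20 (HSP90AB1), and the cutoffs of the tables were not examined here. Absence of the other members from the tables between lines is thus not a finding of no difference.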

How the data were processed

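RNA of 18 libraries, 3 in each of 6 groups, was sequenced in bulk. The authors deposited raw counts per gene, FPKM of the same libraries and tables of log2 fold changes of their own comparisons. HISAT2 2.0.5, StringTie 1.3.3b, featureCounts 1.5.0-p3 and hg38 are named in the submitters' processing notes; the role of each, the annotation release and the strand setting are not given in the sources used here. Depth was 14238090 to 25011331 counts per library. Column letters A to C name libraries and were not tied to replicate numbers of the labels.

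The test on counts was edgeR 4.0.16 (R 4.3.3). Its filterByExpr kept 17409 of 58735 genes, libraries were scaled by TMM, 6 group means were fitted with quasi-likelihood (12 residual degrees of freedom), and p-values were adjusted over all genes tested by Benjamini-Hochberg. CPM values use the TMM scale. SE is the log2 fold change divided by the root of F. FPKM served for levels between genes and, as log2(FPKM + 1) and log2(FPKM + 0.1), for limma 3.58.1; DESeq2 1.42.0 was another alternative. Promoters came from RefSeq (GRCh38.p14).

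The members and lists were chosen with earlier results of these data known. Named genes were all members, all genes around the heat shock factors, up to 4 called genes of each other list per comparison (lowest adjusted p, or largest absolute log2 fold change where TIGK 24 h libraries enter), and the 5 genes most like HSPA8. The result of 1 listed gene is not reported here. No p is given for members in contrasts with TIGK 24 h libraries, nor for HSPA8 in those with TIGK 0 h libraries.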

Additional observations from a re-analysis of the deposited data

Results flagged for a closer look

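HSPA8 at 6 h lay on opposite sides of the unscratched libraries in the 2 lines. In HaCaT all 3 libraries at 6 h (2698 to 2910 CPM) were above the 3 unscratched ones (2289 to 2536 CPM), and in TIGK all 3 at 6 h (3675 to 3913 CPM) were below the unscratched ones (3981 to 4280 CPM). Groups that do not overlap in this way were found for 15.9% of all genes tested in HaCaT and 19.6% in TIGK. The change in HaCaT did not pass (log2 fold change 0.20, edgeR adjusted p = 0.622), and the 95% interval of that in TIGK, -0.34 to 0.04, includes 0. The difference, TIGK minus HaCaT, was -0.35 on the log2 scale (SE 0.13). It was not tested, because the unscratched TIGK libraries belong to the contrast by which HSPA8 was chosen.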

How the results depend on the processing

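Over the alternatives, 971 of 1023 member values in the contrasts with a test kept their direction and side of the threshold, 20 fell below it, 15 passed it and 17 changed sign. In these counts the sum of HSPA1A and HSPA1B stands for both members. Leaving out 1 library at a time gave 0 to 2 members called in TIGK at 6 h and 0 to 2 in the line difference at 6 h. In TIGK at 6 h, 2 members were called with DESeq2, total counts, no filter on low counts, at least 10 CPM in 3 libraries or without the letter C libraries. With HSPA1A and HSPA1B summed, the 1 row of the pair was called. With only the groups compared 0 were called, and that setting gave 1 in HaCaT at 6 h. In the line difference at 6 h, with HSPA8 left out because no test is given for it, HSPA1A and HSPA1B passed the threshold with no filter. Without the letter C libraries HSPA1A passed it. The cause was not tested. With total counts the sign changed for HSP90AA1 in HaCaT at 24 h (0.0230), and for HSPH1 (-0.000286) and HSPB1 (-0.0162) in TIGK at 6 h. For HaCaT against TIGK at 6 h it changed for HSPA1A with the pair summed (-0.00533), and for HSPA1B (0.0530) and HSP90AA1 (0.0777) without the letter C libraries. Leaving out 1 library gave log2 ranges of -0.0146 to 0.121 (HSPA1A) and -0.0231 to 0.0998 (HSPA1B) in HaCaT at 6 h, and -0.0191 to 0.109 (HSPH1) and -0.133 to 0.221 (HSPB1) in TIGK at 6 h. For HaCaT against TIGK at 6 h they were -0.0650 to 0.189 (HSPA1A), -0.118 to 0.0537 (HSPA1B) and -0.102 to 0.0784 (HSP90AA1), and for the line difference at 24 h -0.198 to 0.0532 (DNAJA1). With the replicate block by letter within line, 2 members were called in TIGK at 6 h, and it changed no other count of members; same-letter correlations there were 0.105, 0.0944 and 0.388, each the best for its letter, which is a hint from the data and not from the design, since no label ties libraries by letter.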
